A study of Mus musculus with 18 samples.

Results

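Kidney gene expression was compared between mice that had received STZ and a faecal transfer and mice that had received AOS alone. The comparison held 9 of the 18 libraries of the series, chosen by their labels: 3 of STZ+AOS-FMT and 3 of STZ+control-FMT against 3 of AOS. STZ usually stands for streptozotocin, which kills pancreatic beta cells and makes rodents diabetic. FMT usually stands for faecal microbiota transplantation, and AOS is not spelled out in the labels.

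All 9 libraries were from frozen kidneys of ICR mice, an outbred stock, aged 10 weeks. The label of the AOS mice names AOS at 10 mg/kg and no STZ, and the labels of both transfer groups name STZ and a transfer. The groups named STZ+AOS-FMT and STZ+control-FMT differed in the label of the transfer, AOS 10 mg/kg or control. The labels do not say whether that AOS was given to the donors or to the recipients, and it is assumed here to name what the donors had received. STZ and the transfer varied together and cannot be told apart in this comparison, and neither can direct AOS where the transfer mice had none. No label says whether the replicates came from separate mice, so the p-values reflect only how much these samples vary, and that variation may be technical. No label gives blood glucose, the dose of STZ or the time of day at which kidneys were taken. The other 9 libraries, of controls, STZ and STZ+AOS, were used only where they are named.

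In a whole kidney the proximal tubule makes most of the RNA. It reabsorbs glucose, amino acids, phosphate and filtered proteins, secretes organic ions, makes glucose and burns fatty acids, and in male mice it carries many androgen-driven transcripts. The tumour suppressor p53 is a transcription factor that, after DNA damage or other stress, raises genes that halt the cell cycle, repair DNA or start cell death. The nuclear receptor PPAR alpha raises genes of fatty acid oxidation and ketone synthesis when fatty acids reach a cell, whereas insulin signalling favours fatty acid synthesis. In bulk tissue, fewer cells of a type and less RNA per cell cannot be told apart.

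Values are FPKM, a read count scaled by gene length and by library depth, and that depth is unknown. Between 11407 and 12061 entries reached 1 FPKM in a library. A log2 difference is the mean of both transfer groups minus the AOS mean on the scale of log2(FPKM + 1), given ± its standard error, and it understates changes of genes near 0. Each was tested with limma over 12061 genes with Benjamini-Hochberg adjustment, and a gene is called where the adjusted p is under 0.05. Kap alone took between 144521 and 155154 of the 707472 to 721667 FPKM summed over an AOS library, and between 54474 and 85880.2 of 648795 to 693519 in a transfer library. The median log2 difference of all genes was 0.12 as deposited. Rescaling by the median of ratios made it -0.0048, and quantile normalization -0.011. Slc34a1, the phosphate carrier that marks the proximal tubule, was at 2719, 2633 and 2908 FPKM in AOS and between 2189 and 2966 with a median of 2674 FPKM in the transfer libraries. Umod, which marks the thick ascending limb, was at 929.8, 687 and 583 in AOS and between 307 and 697 with a median of 448 in the transfer libraries, so kidney markers were high in all 9.

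Most tested p53 targets, 15 of 27 fatty acid oxidation genes and the metallothioneins Mt1 and Mt2 were higher with STZ and a transfer. In contrast, Scd1, Ace, Kap and 9 of 18 organic ion transporters were lower. Of the 27 fatty acid oxidation genes 3 were lower, and 12 were higher under each of the 3 scales named below. Of 14 glucose handling genes 8 were higher, and amino acid carriers changed in both directions. In all, 2639 of 12061 genes (21.9%) were called, 2144 higher (17.8%) and 495 lower (4.1%). Other scalings changed that split. Median-of-ratios rescaling gave 733 higher and 1097 lower, quantile normalization 716 and 924, and rescaling to the total without Kap 866 and 869. Under all of the deposited, median-of-ratios and quantile scales, 585 genes were higher (4.85%) and 490 lower (4.06%). The 6 transfer libraries lay above all 3 AOS libraries for 2503 genes (20.8%) and below them for 556 (4.61%). A called difference above 1 on the log2 scale was found for 105 genes, and one below -1 for 32.

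These calls rest on the spread within the 9 libraries. Without AOS 1, AOS 2 or AOS 3 the number called was 1528, 1251 and 1178. When all 18 libraries were fitted with 1 shared estimate of the spread, 2 genes were called, Hebp1 with a log2 difference of 1.44 and Scd1 with -2.54. The separate comparisons share the 3 AOS libraries. They called 1582 genes (13.1%) for STZ+AOS-FMT minus AOS and 1889 genes (15.7%) for STZ+control-FMT minus AOS. Without AOS 1, AOS 2 or AOS 3 the former count was 876, 753 and 749 and the latter 1049, 807 and 816. Without STZ+AOS-FMT 1 or STZ+AOS-FMT 3 the former was 763 and 717, and without STZ+control-FMT 1 or STZ+control-FMT 3 the latter was 940 and 951.

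**Figure D1:**
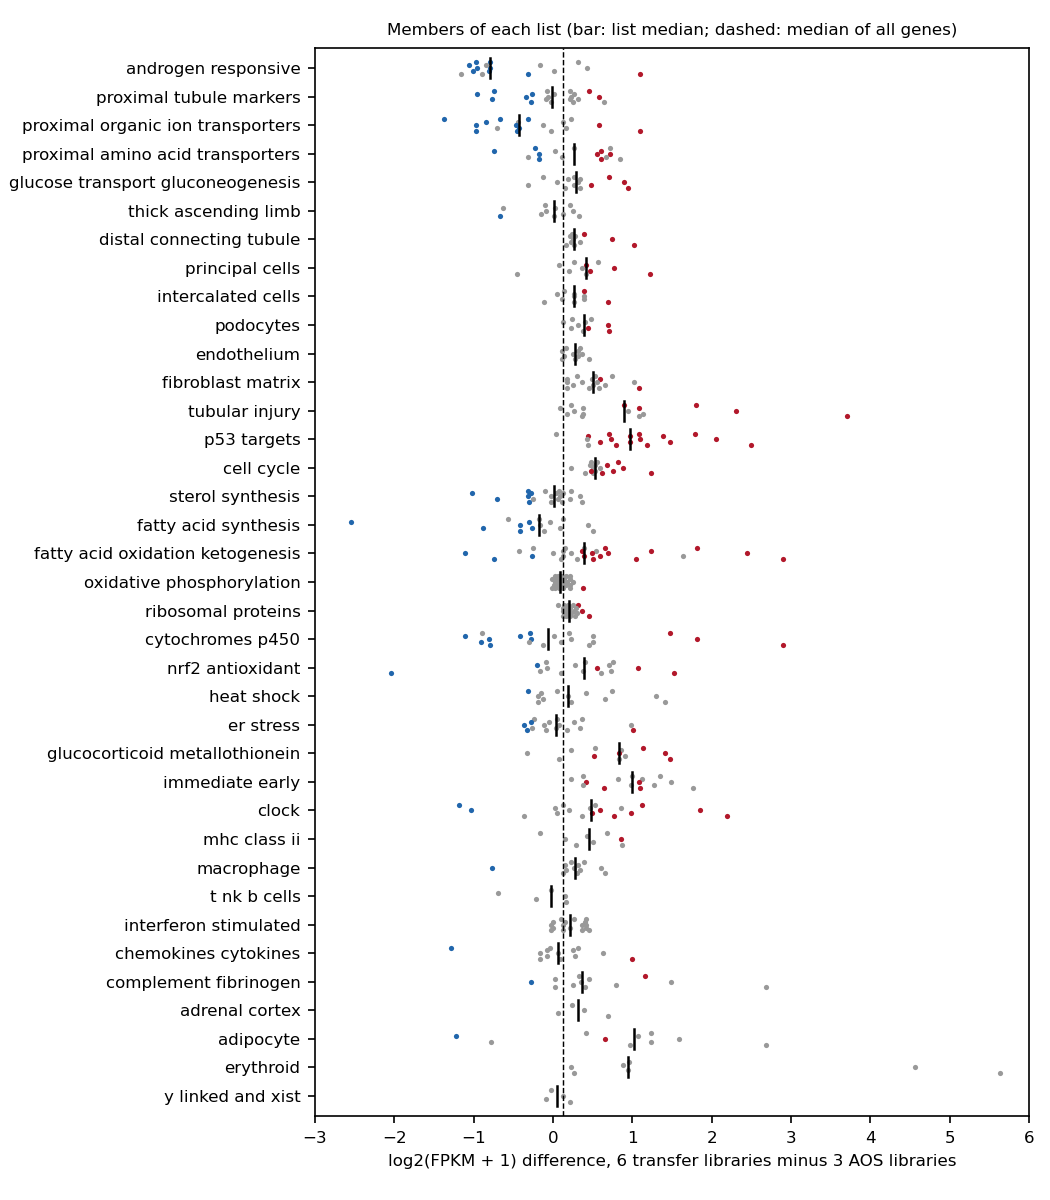
Each point is a tested gene, placed by its log2(FPKM + 1) difference between the 6 transfer libraries and the 3 AOS libraries (x axis) in its gene list (y axis, lists with at least 4 tested members), red or blue where it was called higher or lower under all 3 scalings and grey elsewhere. Black bars are list medians and the dashed line is the median of all genes at 0.12; the p53 targets have a median of 0.97 and the androgen-responsive genes one of -0.80.

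Genes that p53 raises were higher in the transfer libraries with few exceptions. Of 18 tested targets, 16 were called higher and 0 lower, 15 of them under all 3 scalings, against 17.8% and 4.85% of all genes, and their median log2 difference was 0.97. Cdkn1a (in mm10 chromosome 17, 29090976 to 29100727), the inhibitor of cyclin-dependent kinases that stops the cell cycle, was at 5.2, 3.73 and 4.62 FPKM in the AOS libraries. It was at 31.8, 25.0 and 23.4 FPKM in STZ+AOS-FMT and 35.3, 27.4 and 40.3 in STZ+control-FMT. All 6 transfer libraries were far above the 3 AOS libraries, 6.76-fold by the means, and the log2 difference was 2.50 ± 0.14 with an adjusted p of 6.56e-05.

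The RefSeq promoter table (GRCm38.p6) holds a start of Cdkn1a with a pair of p53 half-site cores just before it. It is shown because Cdkn1a was the 1 listed p53 target, of 15 with an entry, whose 250 bases before a start held CATG, then any 6 bases, then CATG, searched on both strands. The same letters are in 0.49% of all 32851 such windows. The run lies at chr17:29090901-29090974, forward strand, has the motif in capitals, and the motif ends 34 bases before that start. A match of letters is a description and does not show binding.
Cdkn1a: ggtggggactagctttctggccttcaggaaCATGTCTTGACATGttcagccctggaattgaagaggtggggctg

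The other targets covered several arms of the response. Phlda3 (chromosome 1, 135766119 to 135769136), which restrains Akt signalling, was at 1.83, 1.2 and 1.86 FPKM in AOS, 9.58, 8.12 and 8.25 in STZ+AOS-FMT and 11.9, 9.21 and 13.3 in STZ+control-FMT. Its log2 difference was 2.06 ± 0.12 (adjusted p = 6.56e-05), with no overlap between the groups. Ccng1, cyclin G1, was at 70.5, 59.4 and 62.8 FPKM in AOS and between 149 and 185 with a median of 171 in the 6 transfer libraries without overlap (1.39 ± 0.07, adjusted p = 6.56e-05). Gdf15, a secreted stress cytokine, was at 4.89, 3.95 and 5.78 in AOS, 14.3, 19.5 and 12.9 in STZ+AOS-FMT and 18.9, 33.2 and 21.2 in STZ+control-FMT, so its highest library was STZ+control-FMT 2. Plk2, a stress-responsive polo kinase, rose by 1.47 ± 0.12.

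Eda2r, a death-domain receptor, was close to 0 in AOS at 0.09, 0.06 and 0.15 FPKM and between 1.06 and 1.87 with a median of 1.32 in the transfer libraries. It passed the filter of 1 FPKM through the transfer libraries alone and so had to differ, and it is counted among the called targets. Mdm2, the ubiquitin ligase that removes p53, differed by 0.79 ± 0.09, and Bax, which opens mitochondria in cell death, by 0.44 ± 0.07. The nuclease gene Aen differed by 0.97 ± 0.09, Trp53inp1 by 0.97 ± 0.14 and Zmat3 by 0.70 ± 0.08. Bbc3, which encodes the cell death protein Puma, was at 1.38, 0.98 and 0.67 FPKM in AOS and 1.06 to 2.48 in the transfer libraries and was not called (adjusted p = 0.116). Ei24 lay at 65.5 to 73.9 in AOS and 66.1 to 72.9 in the transfer libraries. Sesn2 was called as deposited (0.44 ± 0.12) but not under every scaling. Between 12 and 17 of the 18 targets were called higher when each library was left out in turn.

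**Figure D2:**
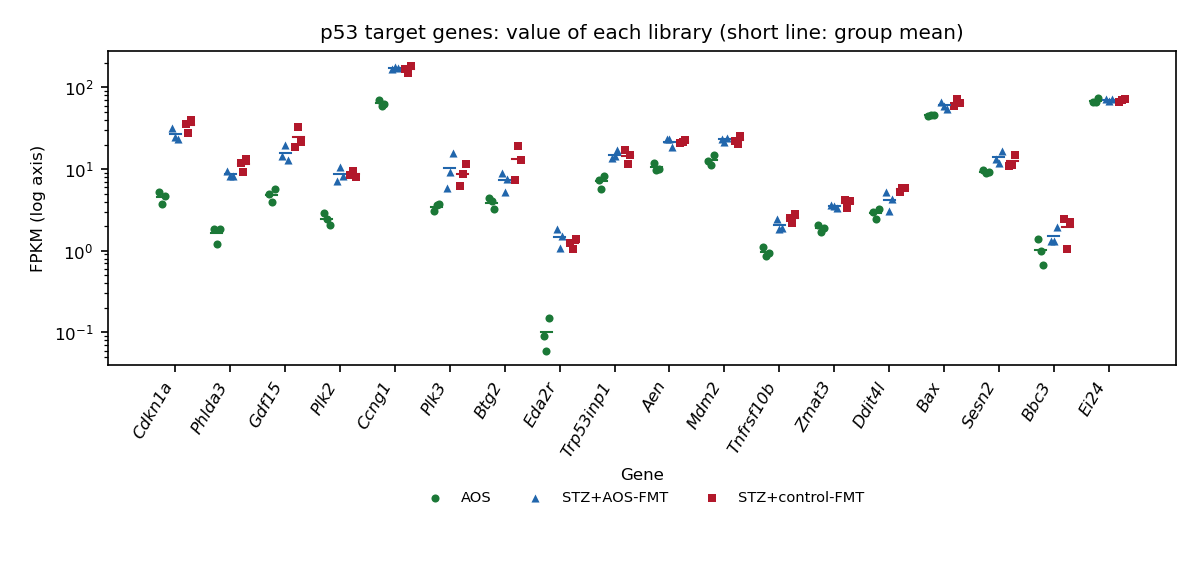
FPKM on a log axis of each p53 target in the 3 AOS libraries (circles), 3 STZ+AOS-FMT libraries (triangles) and 3 STZ+control-FMT libraries (squares), ordered by log2 difference, with short lines at group means. For Cdkn1a the AOS libraries lie at 5.2 or less and the transfer libraries at 23.4 or more, whereas the groups overlap for Ei24 at the right.

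Cell cycle genes were higher as well. Of 17 tested, 15 were called higher and 0 lower, against 17.8% and 4.1% of all genes. Under all 3 scalings 7 were called higher, against 4.85% of all genes, and the median was 0.53. Ccnd1, cyclin D1, which drives entry into S phase, was at 47.4, 65.3 and 50.7 FPKM in AOS and between 103 and 151 with a median of 136 in the transfer libraries (1.23 ± 0.16, adjusted p = 0.00179). The replication licensing genes Mcm2 (0.68), Mcm3 (0.82), Mcm4 (0.62) and Mcm5 (0.88) rose in log2 by the amounts in parentheses, from at most 3.49 FPKM in AOS. The proliferation marker Mki67 was low, at 0.31 to 0.39 FPKM in AOS and 0.62 to 1.25 in the transfer libraries. It passed the filter of 1 FPKM through the transfer libraries alone and so had to differ, and it is counted among the 15 called. Its call did not hold under every scaling. Where only genes with a mean of at least 5 FPKM were tested, 5 of the list were called higher. Between 11 and 14 of the 17 were called higher when each library was left out.

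The largest rises by the naming rule included markers of the urothelium, the lining of the renal pelvis. Ly6d, a surface protein of stratified epithelia, was at 1.43, 0.68 and 0.26 FPKM in AOS, 14.9, 2.80 and 23.8 in STZ+AOS-FMT and 22.6, 13.4 and 29.4 in STZ+control-FMT (3.19 ± 0.59, adjusted p = 0.0111). The uroplakins are membrane plaque proteins of umbrella cells. Upk1a was at 0.95, 1.62 and 0.53 FPKM in AOS, 11.4, 1.97 and 16.2 in STZ+AOS-FMT and 17.97, 8.73 and 23.3 in STZ+control-FMT. Upk2 and Upk1b had log2 differences of 2.79 ± 0.58 and 2.39 ± 0.47. For each of these 4 genes STZ+AOS-FMT 2 was the lowest of the 6 transfer libraries. It lay above AOS, as the naming rule requires.

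A list of 10 urothelial markers was therefore drawn up after the data were seen, and it supports no test. Of its 8 tested members, 8 were called higher, with a median log2 difference of 2.46, and Trp63 and Grhl3 were too low to test. Under each of the 3 other scalings 6 were called higher. The counts of this list and of the 2 lists below stand against 17.8% of all genes called higher. The summed FPKM of the 10 was 47.3, 56.0 and 39.8 in AOS, 138.6, 59.0 and 171.8 in STZ+AOS-FMT and 156.3, 120.0 and 242.4 in STZ+control-FMT. Krt7 made most of the sum in AOS, at 41.6, 44.9 and 37.0 FPKM. Krt5, which marks basal cells, was at 0.07, 0.11 and 0 in AOS, 2.45, 0.36 and 6.08 in STZ+AOS-FMT and 4.70, 2.99 and 6.04 in STZ+control-FMT. None of the 10 was at 0 in all 9 libraries. In STZ+AOS-FMT 2, Upk3a was at 1.00 FPKM, against 0.72, 1.36 and 0.07 in AOS. Psca was at 2.86 there, against 1.97, 4.73 and 0.19 in AOS. Both thus lay among the AOS libraries, as did the untested Trp63 and Grhl3, whereas Upk3b, Krt5 and Krt7 lay above them. Krt5 and Upk1b reached 1 FPKM in the transfer libraries alone, and so had to differ once they passed the filter. The summed FPKM of 6 smooth muscle genes was 35.2, 23.5 and 32.5 in AOS, 51.4, 28.7 and 81.2 in STZ+AOS-FMT and 86.4, 45.9 and 91.4 in STZ+control-FMT, and 2 of these 6 were called higher. That count was 0 under each of the 3 other scalings and without any 1 AOS library, STZ+AOS-FMT 1, STZ+control-FMT 1 or STZ+control-FMT 3. It was 3 without STZ+AOS-FMT 3 or STZ+control-FMT 2 and 4 without STZ+AOS-FMT 2. The 2 called included a gene that reached 1 FPKM in the transfer libraries alone, and so had to differ. The summed FPKM of 5 genes of the inner medulla and of osmolyte handling was 106.5, 143.6 and 113.4 in AOS, 163.3, 104.9 and 175.6 in STZ+AOS-FMT and 180.9, 128.9 and 306.0 in STZ+control-FMT. Of these 5, 0 were called. The part of the tissue sampled in each kidney is not stated, and its part in the urothelial genes was not tested. Without AOS 3, AOS 1 or AOS 2, the number of urothelial markers called fell to 0, 1 and 3, and without STZ+AOS-FMT 1 to 5.

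**Figure D3:**
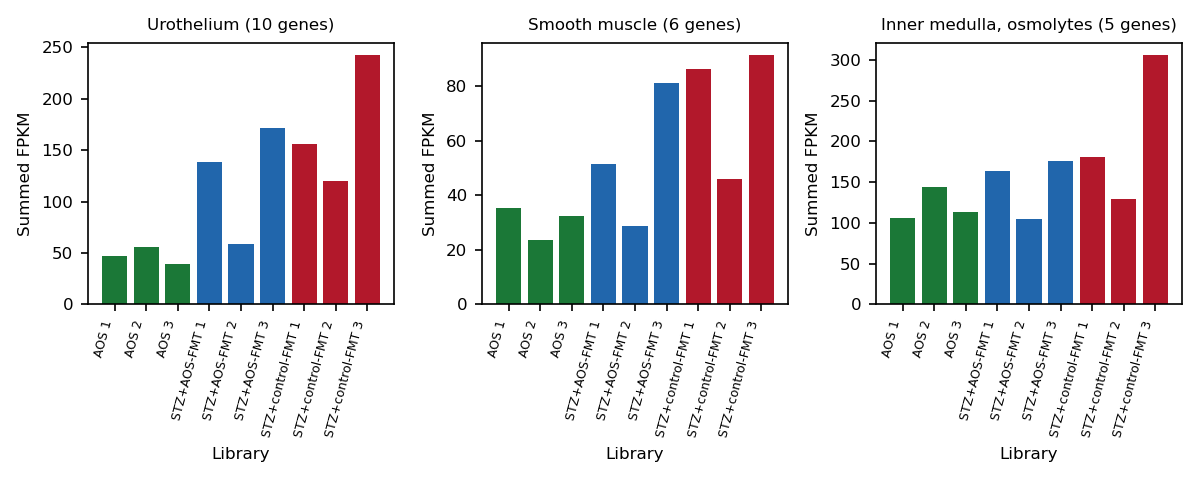
Summed FPKM in each of the 9 libraries (x axis) of 10 urothelial, 6 smooth muscle and 5 inner medullary or osmolyte genes, green for AOS, blue for STZ+AOS-FMT and red for STZ+control-FMT. STZ+AOS-FMT 2 has a urothelial sum of 59.0, next to the AOS libraries, and the other 5 transfer libraries lie at 120.0 or more.

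Some tubular injury markers were higher too. Of 15 tested, 7 were called higher and 0 lower, 5 under all 3 scalings, against 17.8%, 4.1% and 4.85% of all genes. Sprr1a, a cornified envelope protein that is also made by urothelium, was at 3.49, 8.08 and 0.75 FPKM in AOS, 53.5, 6.80 and 98.0 in STZ+AOS-FMT and 87.6, 56.5 and 119 in STZ+control-FMT (3.71 ± 0.85, adjusted p = 0.0235), and STZ+AOS-FMT 2 lay among the AOS libraries. The epithelial keratins Krt18 (1.80 ± 0.33) and Krt19 (2.31 ± 0.47) also had their lowest transfer value in STZ+AOS-FMT 2. Spp1, osteopontin, was at 325, 285 and 277 FPKM in AOS and between 536 and 839 with a median of 595 in the transfer libraries without overlap (1.09 ± 0.15, adjusted p = 0.00272). Clu, the secreted chaperone clusterin, rose by 0.90 ± 0.11. Havcr1, a standard marker of tubular injury, was at 2.27, 1.63 and 2.06 FPKM in AOS and between 2.32 and 3.27 with a median of 2.91 in the transfer libraries, and its call (0.38 ± 0.10) was lost under another scaling. Lcn2, the secreted siderophore-binding protein NGAL, was at 3.57, 3.41 and 2.06 in AOS, 7.34, 3.93 and 5.29 in STZ+AOS-FMT and 13.5, 4.74 and 19.1 in STZ+control-FMT and was not called (1.14 ± 0.38, adjusted p = 0.0698). Without AOS 3 the count of called injury markers was 3, and without AOS 1, STZ+AOS-FMT 1 or STZ+control-FMT 3 it was 4.

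Ephx1 was another of the large rises. The gene (chromosome 1, 180976210 to 181020904), which encodes the microsomal epoxide hydrolase, was at 19.1, 15.7 and 13.7 FPKM in AOS, 83.1, 69.6 and 89.3 in STZ+AOS-FMT and 85.7, 56.4 and 98.7 in STZ+control-FMT. The groups were well apart (2.24 ± 0.18, adjusted p = 0.000444). Hamp2, a hepcidin gene, was listed at 0 in AOS 1 and AOS 2 and at 0.25 in AOS 3, and lay between 1.34 and 37.7 with a median of 11.6 in the transfer libraries. It passed the filter of 1 FPKM through the transfer libraries alone, and so had to differ. Its values spread widely (3.43 ± 0.93) and its call was lost under another scaling. Igfbp2, which binds insulin-like growth factors, rose by 2.04 ± 0.46, the ion pump regulator Fxyd3 by 2.02 ± 0.47 and the sphingolipid enzyme subunit Sptssb by 2.29 ± 0.62, each lowest in STZ+AOS-FMT 2 among the transfer libraries. The call of Sptssb was lost under another scaling. Of the 9 fits that each left out 1 library, the call was lost in 7 for Hamp2, 6 for Sptssb and 4 for Fxyd3. It was lost in 3 each for Igfbp2 and Upk1a and 2 each for Upk2, Upk1b and Krt19. Ly6d lost its call in 1, and Ephx1 and Cdkn1a in 0.

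The largest fall by the naming rule was that of Scd1 (chromosome 19, 44394455 to 44407879), a desaturase whose products are monounsaturated fatty acids. It was at 42.6, 42.0 and 37.1 FPKM in AOS, 8.35, 6.72 and 3.60 in STZ+AOS-FMT and 4.05, 9.69 and 6.31 in STZ+control-FMT. Every transfer library was far below every AOS library, 6.28-fold by the means (-2.54 ± 0.27, adjusted p = 0.0012). Ces1g, a carboxylesterase, went from 4.79, 7.30 and 10.7 FPKM in AOS to 0.69 to 1.78 in the transfer libraries (-2.04 ± 0.22). Ppard, which encodes the nuclear receptor PPAR delta, was at 29.4, 16.4 and 27.7 in AOS and between 5.62 and 10.4 with a median of 7.59 in the transfer libraries (-1.50 ± 0.18).

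Several of the falls were genes of the proximal tubule surface or secreted factors. Ace (chromosome 11, 105967945 to 105989964), the angiotensin-converting enzyme of the brush border, was at 124, 102 and 94.1 FPKM in AOS, 32.1, 42.4 and 31.7 in STZ+AOS-FMT and 31.3, 42.9 and 45.7 in STZ+control-FMT. The highest transfer library was at less than the lowest AOS library by a wide margin (-1.48 ± 0.15, adjusted p = 0.000666). Mep1b, the beta subunit of the brush border protease meprin, differed by -1.30 ± 0.18, and Acy3, an aminoacylase that acts on mercapturic acids, by -1.14 ± 0.15 from 5737, 4455 and 5818 FPKM in AOS. C1qtnf3, a secreted relative of adiponectin, was at 97.3, 81.9 and 88.4 in AOS and between 26.1 and 37.5 with a median of 31.0 in the transfer libraries (-1.48 ± 0.12, adjusted p = 0.000333). Angptl7, a secreted angiopoietin-like protein, was at 107, 126 and 102 in AOS, 50.1, 76.3 and 56.3 in STZ+AOS-FMT and 28.8, 41.5 and 34.3 in STZ+control-FMT. Ppic, a cyclophilin, fell by 2.7-fold in the means, the annexin Anxa13 by 2.85-fold, the lipase family gene Lipo3 by 2.6-fold and the amino acid transporter Slc6a15 by 2.62-fold. Lpl, the lipoprotein lipase that frees fatty acids from triglyceride, was at 139, 106 and 169 FPKM in AOS and between 43.5 and 91.1 with a median of 53.4 in the transfer libraries (-1.22 ± 0.24), and lost its call in 1 of those 9 fits.

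Fatty acid oxidation and ketone synthesis genes were mostly higher. Of 27 tested, 15 were called higher and 3 lower, 12 and 3 under all 3 scalings, against 17.8%, 4.1%, 4.85% and 4.06% of all genes. Their median was 0.39. Cyp4a14, a fatty acid omega-hydroxylase and a classical target of PPAR alpha, was at 1.54, 1.15 and 1.23 FPKM in AOS, 43.0, 9.85 and 15.1 in STZ+AOS-FMT and 20.9, 7.18 and 17.97 in STZ+control-FMT (2.90 ± 0.48, adjusted p = 0.00779). All 6 transfer libraries were above all AOS libraries, and STZ+control-FMT 2 was the lowest of them.

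Cyp4a10 rose from 84.8, 74.4 and 85.7 FPKM in AOS to 186 to 364 in the transfer libraries (1.82 ± 0.23). Acaa2, the mitochondrial thiolase of the last step of beta-oxidation, was at 69.0, 68.6 and 70.0 in AOS and 122 to 164 in the transfer libraries (1.05 ± 0.07, adjusted p = 6.56e-05). Acot1, a thioesterase of fatty acyl-CoA, was at 29.1, 26.0 and 31.1 in AOS, 45.8, 72.8 and 42.9 in STZ+AOS-FMT and 91.9, 93.9 and 85.0 in STZ+control-FMT. Smaller rises were those of the trifunctional protein genes Hadha (0.37) and Hadhb (0.39), of Acaa1b (0.69) and of the carnitine carrier Slc25a20 (0.49), as log2 differences. Cpt1a, the enzyme that admits fatty acids to mitochondria, lay at 78.7 to 101 FPKM in AOS and 91.6 to 126 in the transfer libraries and was not called (0.23 ± 0.09). The 3 called lower were Cyp4a12a (-1.11 ± 0.26), Bdh1 (-0.75 ± 0.12), which interconverts ketone bodies, and Ehhadh (-0.26 ± 0.07), a peroxisomal enzyme. Without AOS 1 or AOS 3, 1 gene of the list was called lower. Angptl4, an inhibitor of lipoprotein lipase, was called as deposited (1.64 ± 0.41) and not under every scaling.

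Fatty acid and sterol synthesis went the other way in part. Of 15 fatty acid synthesis genes, 6 were called lower and 2 higher, 6 and 0 under all 3 scalings, with a median of -0.18. Of all genes 4.1% were called lower and 17.8% higher, and 4.06% and 4.85% under all 3 scalings. Beside Scd1, the synthase gene Fasn was at 12.9, 14.9 and 16.2 FPKM in AOS and between 5.78 and 9.87 with a median of 7.62 in the transfer libraries (-0.88 ± 0.15, adjusted p = 0.0058). The desaturase Fads2 (-0.41 ± 0.05), malic enzyme Me1 (-0.41 ± 0.10), Acaca (-0.30 ± 0.09), which makes malonyl-CoA, and the sugar-responsive factor Mlxipl (-0.26 ± 0.06) fell less. The 2 called higher were Acacb and Elovl6, and neither kept that call under all 3 scalings. Srebf1, the regulator of fatty acid synthesis genes, was not called (-0.11 ± 0.13). Of 20 sterol synthesis genes, 6 were called lower, all 6 under the 3 scalings, against the same shares of all genes. Fdft1 alone was called higher, and it lost its call under another scaling. The largest of the falls was Idi1 (-1.02 ± 0.28), an isomerase of the pathway, and its groups overlapped. Of the sterol genes 0 were called lower without AOS 1 or AOS 3, 2 without AOS 2, and 1 without STZ+AOS-FMT 1 or STZ+control-FMT 1. Fatty acid synthesis genes called lower numbered 4 to 7 when each library was left out.

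**Figure D4:**
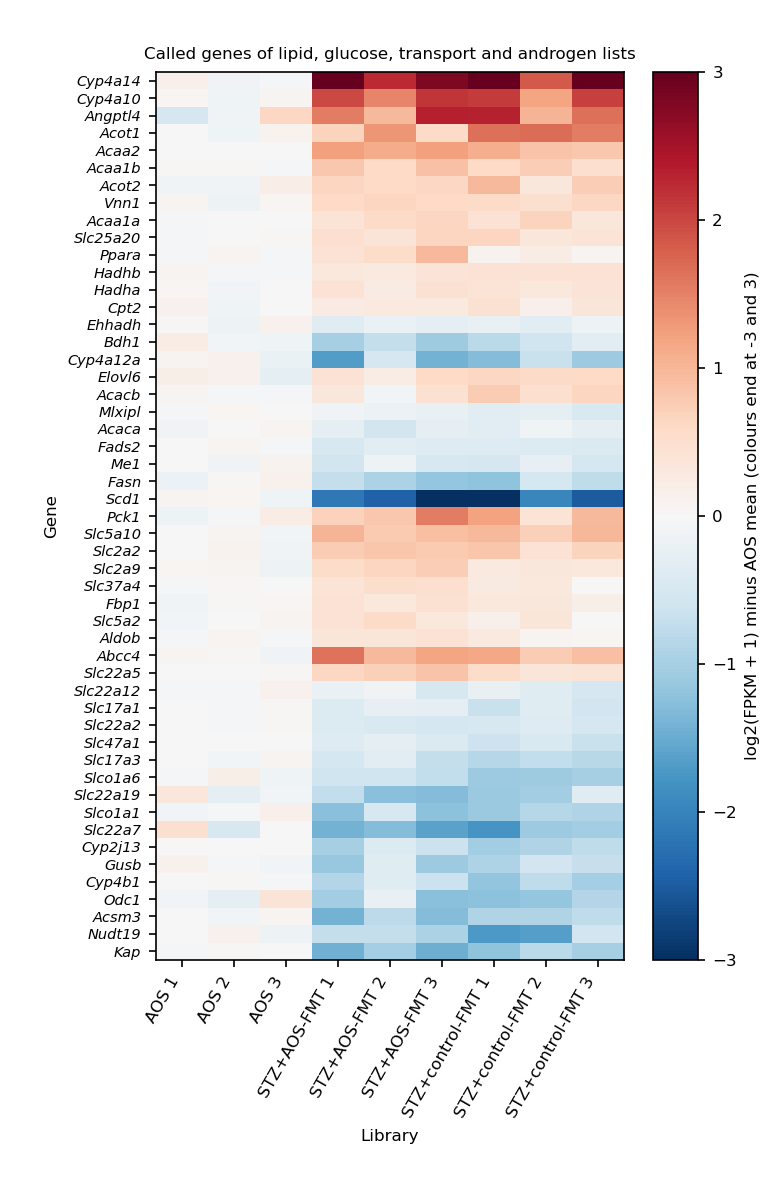
Rows are called genes of the lists for fatty acid oxidation, fatty acid synthesis, glucose handling, organic ion transport and androgen response, columns are the 9 libraries, and colour is log2(FPKM + 1) minus the AOS mean of that gene, red above and blue below. Cyp4a14 and Cyp4a10 are red and Scd1 is blue in all 6 transfer libraries, and Odc1 in STZ+AOS-FMT 2, at 759.0 FPKM, is close to the AOS colour.

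Glucose handling genes were higher or not called. Of 14 tested, 8 were called higher and 0 lower, 4 under all 3 scalings, against 17.8%, 4.1% and 4.85% of all genes. Slc5a10, a sodium-coupled sugar carrier for mannose and fructose, was at 115, 123 and 110.1 FPKM in AOS and between 191 and 238 with a median of 222 in the transfer libraries (0.90 ± 0.08, adjusted p = 0.000333). Slc2a2, the basolateral glucose carrier GLUT2, was at 37.3, 40.7 and 35.04 in AOS, 64.4, 67.2 and 65.8 in STZ+AOS-FMT and 67.2, 51.1 and 60.1 in STZ+control-FMT (0.71 ± 0.08, adjusted p = 0.000861). Pck1, which commits carbon to gluconeogenesis, was at 514, 549.5 and 664 in AOS, 929.6, 1010.5 and 1657 in STZ+AOS-FMT and 1328, 762 and 1132 in STZ+control-FMT (0.94 ± 0.23, adjusted p = 0.025). Slc5a2, the apical glucose carrier SGLT2, differed by 0.31 ± 0.08 with overlapping groups and lost its call under another scaling. G6pc, which releases free glucose, was not called (-0.31 ± 0.23). Without AOS 1 the count was 4 and without AOS 3 it was 5.

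Of 18 organic ion transporters of the proximal tubule, 9 were called lower and 2 higher, the same numbers under all 3 scalings, against 4.1% and 17.8% of all genes, with a median of -0.43. Slc22a7, the organic anion transporter OAT2, was at 182, 93.5 and 130.0 FPKM in AOS, 48.1, 52.6 and 42.4 in STZ+AOS-FMT and 37.6, 60.9 and 63.3 in STZ+control-FMT (-1.37 ± 0.23, adjusted p = 0.00726). Slco1a6 was at 328, 387 and 315 in AOS and between 160.3 and 227 with a median of 189 in the transfer libraries (-0.84 ± 0.07), and its relative Slco1a1 differed by -0.97 ± 0.17. The cation transporters Slc22a2 (-0.46 ± 0.05) and Slc47a1 (-0.47 ± 0.06), which act in series in secretion, fell with Slc17a1 (-0.43 ± 0.07), Slc17a3 (-0.67 ± 0.08) and the urate carrier Slc22a12 (-0.31 ± 0.09). Slc22a5, the carnitine carrier, rose from 62.7, 62.5 and 65.1 FPKM to 82.0 to 115 (0.58 ± 0.06), and the efflux pump Abcc4 from 3.42, 3.28 and 2.87 to 6.10 to 11.9 (1.10 ± 0.14). Slc22a6 and Slc22a8, the main organic anion carriers, were not called (-0.13 and -0.71). Between 7 and 9 were called lower when each library was left out.

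Androgen-responsive genes were mostly lower, in a list that shares members with others. Of 16 tested, 9 were called lower and 2 higher, 8 and 1 under all 3 scalings, against 4.1%, 17.8%, 4.06% and 4.85% of all genes. Their median was -0.80. The 2 called higher were Abcc4 and Slc5a2. Abcc4 and the lower Slc22a12 and Slco1a1 were counted among the organic ion transporters as well, and Slc5a2 among the glucose handling genes. Kap (chromosome 6, 133849851 to 133853762), the kidney androgen-regulated protein, was at 144521, 155154 and 153075 FPKM in AOS, 55167, 74117 and 54474 in STZ+AOS-FMT and 64840.0, 85880.2 and 75587 in STZ+control-FMT (-1.16 ± 0.11, adjusted p = 0.000603). Quantile normalization gives the top gene of every library the same value, so the log2 difference of Kap there was 0.00 by construction. Acsm3, a medium-chain acyl-CoA synthetase, was at 500.2, 469 and 527 FPKM in AOS and between 185 and 294 with a median of 265 in the transfer libraries (-1.01 ± 0.12, adjusted p = 0.0013). Odc1, the enzyme of polyamine synthesis, differed by -0.96 ± 0.24, and STZ+AOS-FMT 2 at 759.0 FPKM lay among the AOS libraries. Gusb, the lysosomal glucuronidase, fell by 1.75-fold in the means, Cyp4b1 by 1.72-fold and Cyp2j13 by 1.72-fold. Cyp7b1 (-0.90 ± 0.30) and Serpina1f (-0.84 ± 0.37) were not called. Without AOS 1 the number called lower was 5, and without AOS 2 or AOS 3 it was 6.

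Amino acid transporters changed in both directions. Of 15 tested, 6 were called higher and 4 lower, 4 and 4 under all 3 scalings, against 17.8%, 4.1%, 4.85% and 4.06% of all genes. The basolateral heavy chain Slc3a2, its light chains Slc7a7 and Slc7a8, and the apical cystine carrier Slc7a9 were higher, by 0.72 ± 0.09, 0.60 ± 0.08, 0.56 ± 0.11 and 0.60 ± 0.11. Slc7a13 of the late proximal tubule was at 501, 438 and 450.4 FPKM in AOS and between 235 and 311 with a median of 286 in the transfer libraries (-0.74 ± 0.06, adjusted p = 0.000259). The falls of Slc6a20b, Slc1a1 and Slc3a1 were small (-0.18, -0.23 and -0.18). The number called lower was 1 without AOS 1 or AOS 3 and 2 without STZ+AOS-FMT 1, STZ+AOS-FMT 3 or any 1 of the STZ+control-FMT libraries. The number called higher was 4 to 7.

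Of 20 general markers of the proximal tubule, 6 were called higher and 6 lower, 2 and 6 under all 3 scalings. Gatm, the first enzyme of creatine synthesis, rose from 410.0, 375 and 434 FPKM in AOS to 551 to 659 (0.58 ± 0.06). Miox, which breaks down inositol, went from 2323, 3641 and 2289.5 to 1435 to 1737 (-0.77 ± 0.14), and Slc22a30 fell by 1.94-fold in the means. Lrp2, the endocytic receptor megalin, was slightly lower (-0.28 ± 0.05). Without AOS 1 or AOS 3 the number called higher was 3. Of 20 cytochrome P450 genes, 3 were called higher and 7 lower, the same numbers under all 3 scalings. Both lists stand against 17.8% of all genes called higher and 4.1% lower, and 4.85% and 4.06% under all 3 scalings. Cyp27b1, which activates vitamin D, was at 0.82, 2.33 and 2.77 FPKM in AOS and between 5.07 and 9.78 with a median of 6.89 in the transfer libraries (1.47 ± 0.28, adjusted p = 0.0111), while Cyp24a1, which degrades it, was not called (-0.13 ± 0.55). Cyp2a4 fell by 1.89-fold in the means.

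The lists of the distal nephron, podocytes and other cells stand against 17.8% of all genes called higher and 4.85% under all 3 scalings. In the distal convoluted and connecting tubule, 6 of 11 genes were called higher, 3 under all 3 scalings. Calb1, the calcium buffer calbindin, was at 110.2, 107 and 111 FPKM in AOS and between 186 and 251 with a median of 235 in the transfer libraries (1.02 ± 0.10, adjusted p = 0.000603), and the calcium channel Trpv5 was at 3.86, 3.93 and 3.84 and 5.47 to 8.45 (0.74 ± 0.10). In principal cells 6 of 11 were called higher, 4 under all 3 scalings. Aqp2, the vasopressin-regulated water channel, was at 80.3, 65.8 and 43.2 FPKM in AOS, 160.1, 109 and 136 in STZ+AOS-FMT and 125, 130.3 and 232 in STZ+control-FMT (1.22 ± 0.26, adjusted p = 0.0167). The sodium channel subunits Scnn1a, Scnn1b and Scnn1g differed by 0.41 ± 0.09, 0.47 ± 0.05 and 0.77 ± 0.08.

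In intercalated cells 5 of 11 were called higher, 2 under all 3 scalings. The latter were Car2, carbonic anhydrase 2 (0.69 ± 0.07), and the ammonia channel Rhbg (0.39 ± 0.07). In the thick ascending limb 1 of 11 was called higher and 1 lower, and the latter, the claudin Cldn10, was at 315, 286 and 285 FPKM in AOS and between 148 and 211 with a median of 190.0 in the transfer libraries (-0.67 ± 0.08, adjusted p = 0.0012). In podocytes 6 of 10 were called higher, 3 under all 3 scalings, with Synpo, synaptopodin (0.71 ± 0.11), as an example. Of 11 endothelial genes 2 were called higher, Eng and Egfl7, and 0 under all 3 scalings. Of 17 fibroblast and matrix genes 5 were called higher, 2 under all 3 scalings. These 2 were Spp1 and the intermediate filament gene Vim (0.59 ± 0.14), whereas the call of the collagen gene Col1a1, at 3.44, 2.20 and 2.75 FPKM in AOS and 3.19 to 8.86 in the transfer libraries, was lost under another scaling. Leaving out AOS 2 reduced the counts to 3 in each of the distal, principal and podocyte lists, 2 in intercalated cells, 0 in endothelium and 1 in the matrix list. Without AOS 1 the distal list had 3, and without AOS 3 podocytes had 2, intercalated cells 3 and endothelium 0. The matrix list had 2 without STZ+control-FMT 3 and 3 without AOS 1, STZ+AOS-FMT 1 or STZ+AOS-FMT 3.

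Genes of the circadian clock changed in both directions. Of 18 tested, 8 were called higher and 2 lower, 7 and 2 under all 3 scalings, against 17.8%, 4.1%, 4.85% and 4.06% of all genes. Their median was 0.48. In the molecular clock, Clock or Npas2 pairs with Arntl (BMAL1) to drive Per, Cry, Nr1d and Dbp genes. The Per and Cry products repress that pair in turn. Ciart (chromosome 3, 95878503 to 95882251), a repressor of that pair, was at 1.84, 2.12 and 0.81 FPKM in AOS, 14.2, 16.9 and 15.2 in STZ+AOS-FMT and 7.71, 6.41 and 7.16 in STZ+control-FMT (2.19 ± 0.16, adjusted p = 0.000194). Dbp, an output transcription factor, was at 26.0, 36.5 and 11.5, 114, 112 and 113 and 51.1, 78.2 and 57.0 in the same order of groups (1.85 ± 0.32). In both genes the 3 STZ+AOS-FMT libraries were highest, the 3 STZ+control-FMT libraries came next and the AOS libraries were lowest. Transfer groups without overlap were found for 1373 of 12061 genes.

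Arntl and Npas2 went the other way. Arntl was at 6.75, 4.59 and 8.24 FPKM in AOS, 1.49, 1.82 and 1.39 in STZ+AOS-FMT and 5.93, 3.15 and 3.58 in STZ+control-FMT (-1.03 ± 0.19), and Npas2 fell by 2.96-fold in the means (-1.19 ± 0.19). Per2 (1.12 ± 0.25), Per3 (0.77 ± 0.12), Bhlhe41 (0.98 ± 0.10), Nr1d2 (0.59 ± 0.12) and Tef (0.49 ± 0.09) were higher, and Clock itself was not called (0.05 ± 0.07). Per1 (0.86 ± 0.32) and Cry1 (0.36 ± 0.22) were not called. The difference between the transfer groups was 1.02 ± 0.18 for Ciart and -0.99 ± 0.22 for Arntl, and neither was called over all genes (adjusted p = 0.329 and 0.357). The time of day of sampling was not tested.

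The clock pair binds the E-box CACGTG. These letters, which read the same on both strands, were in the 250 bases before a RefSeq start of 5 of the 15 clock genes with an entry (Bhlhe41, Ciart, Cry1, Per1 and Tef) and in 6.86% of all 27025 genes with an entry. Ciart, Bhlhe41 and Tef are shown because they were called higher, with the motif in capitals, at chr3:95882237-95882374, reverse strand, chr6:145865538-145865603, reverse strand and chr15:81811246-81811311, forward strand (GRCm38.p6). The window of Ciart holds 3 matches, and another window of Tef, which holds 1, is not shown.
Ciart: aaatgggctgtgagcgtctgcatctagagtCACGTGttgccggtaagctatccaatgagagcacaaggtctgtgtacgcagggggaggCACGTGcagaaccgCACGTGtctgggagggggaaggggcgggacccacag
Bhlhe41: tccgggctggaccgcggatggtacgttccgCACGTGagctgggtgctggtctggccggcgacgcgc
Tef: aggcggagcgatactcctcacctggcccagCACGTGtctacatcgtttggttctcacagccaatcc

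**Figure D5:**
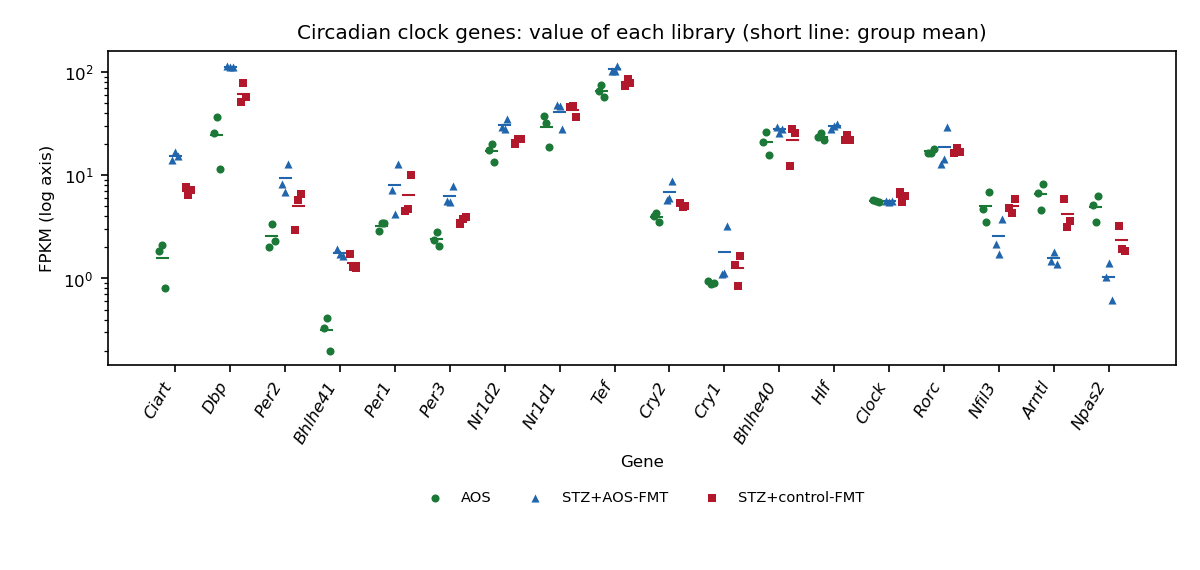
FPKM on a log axis of 18 clock genes in the AOS (circles), STZ+AOS-FMT (triangles) and STZ+control-FMT (squares) libraries, ordered by log2 difference, with short lines at group means. Ciart and Dbp at the left show 3 separate levels, with STZ+AOS-FMT highest, and Arntl and Npas2 at the right have their lowest values in STZ+AOS-FMT, with 1 STZ+control-FMT library of Arntl among the AOS libraries.

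Metallothioneins and several stress-related genes were higher. Of 12 genes that respond to glucocorticoids or metals, 7 were called higher and 0 lower, 5 under all 3 scalings. The shares of all genes were 17.8%, 4.1% and 4.85%. Mt1 and Mt2, the metal-binding metallothioneins, were at 238, 244 and 183 and 64.2, 70.7 and 56.4 FPKM in AOS, and in the 6 transfer libraries Mt1 lay at 489 to 684 and Mt2 at 151 to 198. Their log2 differences were 1.41 ± 0.13 and 1.47 ± 0.11 (adjusted p = 0.000615 and 0.000194). Sgk1, a kinase that raises sodium uptake, rose from 14.8, 14.0 and 14.0 FPKM to 23.2 to 43.7 (1.14 ± 0.21). Fkbp5, a close marker of glucocorticoid receptor activity, was not called (0.23 ± 0.10).

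Of 15 immediate early genes, 7 were called higher, 4 under all 3 scalings, against 17.8% and 4.85% of all genes. Their median was 1.00. STZ+control-FMT 2 stood apart here, with Fos at 47.3 FPKM against 0.9 to 4.14 in the other transfer libraries, and Egr1 at 96.9 against 2.55 to 9.06. Without that library 12 were called. Without AOS 1 or STZ+AOS-FMT 1 the count was 4, without AOS 2 it was 3 and without AOS 3 it was 2. Ier3 was at 23.5, 21.4 and 19.6 FPKM in AOS and between 30.5 and 58.4 with a median of 49.8 in the transfer libraries (1.09 ± 0.18).

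Of 16 targets of the antioxidant factor NRF2, 5 were called higher and 2 lower, 3 and 2 under all 3 scalings. Gsta2, a glutathione transferase, was at 33.2, 34.0 and 24.9 FPKM in AOS, 118, 75.1 and 112 in STZ+AOS-FMT and 86.3, 69.5 and 89.8 in STZ+control-FMT (1.53 ± 0.16, adjusted p = 0.00107). Hmox1, heme oxygenase 1, rose by 0.55 ± 0.09, while the textbook target Nqo1 was not called (0.38 ± 0.15). Of 17 genes of endoplasmic reticulum stress, 3 were called higher and 3 lower, and of 13 heat shock genes 0 and 2. These 3 lists stand against 17.8% of all genes called higher and 4.1% lower, and 4.85% and 4.06% under all 3 scalings. Ddit3, which encodes CHOP, rose by 1.01 ± 0.24, and the chaperone gene Calr differed by -0.36 ± 0.09, while Hspa5 was not called (-0.05 ± 0.12). Without AOS 3, 0 of these 17 and 0 of these 13 were called, and without AOS 1 or AOS 2 also 0 of the 13. Of the NRF2 targets 2 were called higher without any 1 of AOS 1, AOS 2, AOS 3 or STZ+AOS-FMT 1, and 3 without STZ+AOS-FMT 3 or STZ+control-FMT 3.

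Of 26 subunits of oxidative phosphorylation, 9 were called higher but 1 under all 3 scalings, Cox5b (0.38 ± 0.06). Of 23 ribosomal proteins, 13 were called higher and 3 under all 3 scalings, among them Rplp1 (0.46 ± 0.07). Their medians of 0.09 and 0.20 were close to the 0.12 of all genes. Both counts stand against 17.8% of all genes called higher, and 4.85% under all 3 scalings. Without AOS 2 the counts were 3 and 6, without AOS 3 they were 1 and 6, and without STZ+AOS-FMT 1 they were 5 and 8. The ribosomal count was 7 without AOS 1 and 8 without STZ+AOS-FMT 3, and the other count was 5 without STZ+control-FMT 1. The sign of the subunit Cyc1 turned from 0.13 to -0.01 after median-of-ratios rescaling.

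The immune lists also stand against 17.8% of all genes called higher and 4.1% lower. Of 12 macrophage genes 1 was called in each direction, Cd14 higher and Csf1r lower, and the call of Cd14 was lost under another scaling. The log2 difference was positive for 11 of the 12, with a median of 0.28 against 0.12 for all genes. Csf1r, the receptor for the macrophage growth factors CSF1 and IL-34, was at 19.3, 16.0 and 15.5 FPKM in AOS and between 8.23 and 10.3 with a median of 9.53 in the transfer libraries (-0.77 ± 0.08, adjusted p = 0.000695). Its ligand gene Il34, which tubular cells express, was at 28.8, 33.0 and 25.7 FPKM in AOS, 12.8, 14.8 and 7.99 in STZ+AOS-FMT and 7.73, 14.9 and 11.6 in STZ+control-FMT (-1.29 ± 0.22). The other ligand gene, Csf1, was not called (0.28 ± 0.11), and neither were the macrophage genes Adgre1 (0.17) and Cd68 (0.12).

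Of 13 chemokine and cytokine genes 3 were called higher and 1 lower, with Ccl8 higher (0.99 ± 0.24). Of 12 complement and fibrinogen genes 4 were called higher and 1 lower, 1 and 1 under all 3 scalings. C3 was at 7.29, 8.98 and 17.5 FPKM in AOS and between 18.8 and 57.2 with a median of 32.8 in the transfer libraries (1.49 ± 0.41, adjusted p = 0.0399), a call lost under another scaling. Without AOS 1 the counts called higher were 0 for chemokines and cytokines and 1 for complement. They were 1 and 1 without AOS 2, STZ+AOS-FMT 1, STZ+AOS-FMT 3 or STZ+control-FMT 1. Of 8 genes of MHC class II antigen presentation 2 were called higher, and 0 of 5 genes of T, NK and B cells. None of the 17 interferon-stimulated genes was called with all 9 libraries. AOS 3 was high in several of them, with Irf7 at 5.08, 5.90 and 96.6 FPKM and Bst2 at 15.03, 11.7 and 101 in the 3 AOS libraries, and without AOS 3, 7 of the 17 were called higher.

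Markers of other tissues were summed over each list. Over 11 adrenal cortex genes the value was between 8.96 and 10.6 FPKM in AOS and 9.53 to 19.0 in the transfer libraries, and Cyp11b1 was at 0.15 FPKM or less. Sums over 10 spermatid genes reached 1.51 at most, with Prm1 at 0 in all 9. None of the 4 adrenal and 2 chromaffin genes tested was called. Chromaffin sums were 32.2 to 41.5 FPKM in AOS and 33.8 to 76.8 in the transfer libraries. Adipocyte sums were 302.0 to 813 FPKM in AOS, 238 to 849.9 in STZ+AOS-FMT and 825 to 1337 in STZ+control-FMT, with 1 gene called higher, Pnpla2, and 1 lower, Lpl. Erythroid sums were 2742 to 6960.4 FPKM in AOS and 5926 to 28135 in the transfer libraries, with 0 of 7 called. Of 4 Y-linked genes 1 was called, Ddx3y (0.22 ± 0.07), and lost its call under another scaling.

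Between the transfer groups, 0 of 12061 genes (0%) were called by limma. The smallest adjusted p was 0.329, and 872 genes passed 0.05 before adjustment. Tmem25 and Nat8f1 were among the 3 smallest p of genes of at least 5 FPKM. Tmem25, a transmembrane protein gene, was at 43.2, 44.4 and 43.0 FPKM in STZ+AOS-FMT and 33.3, 33.4 and 29.1 in STZ+control-FMT, a log2 difference of 0.44 ± 0.06 (adjusted p = 0.329), with AOS between them at 36.4, 34.6 and 36.6. Nat8f1, an acetyltransferase family gene, was at 344, 293 and 323 FPKM in STZ+AOS-FMT and 250.02, 236 and 238 in STZ+control-FMT (0.40 ± 0.07).

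Set side by side, with the shared AOS libraries in both, the log2 differences of STZ+AOS-FMT minus AOS and STZ+control-FMT minus AOS were 2.33 and 2.67 for Cdkn1a, -2.58 and -2.50 for Scd1, and 2.25 and 2.22 for Ephx1. They were -1.32 and -1.01 for Kap, 1.47 and 1.46 for Mt2, 0.85 and 1.62 for Acot1 and -0.88 and -1.66 for Angptl7.

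Some of the named genes have close relatives with which reads could be shared, and their values are less certain. These are Hamp2, the Cyp4a and Cyp2a genes, Gsta2, Acot1 and Acot2, Slco1a1 and Slco1a6, the Slc22a cluster genes Slc22a19 and Slc22a30, and Lipo3.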

How the data were processed

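Kidney RNA of 18 samples was sequenced, and the 9 samples of both transfer groups and of AOS were compared. Per the submitters' processing notes reads were aligned with Bowtie 0.12.2 to mm10. The counting tool, annotation and filters were not given in the sources used here. Deposited values, 1 per gene and sample, were read as FPKM computed by the authors, because the sum of value times gene length varied less between samples (CV 0.941%) than the plain total (5.47%). The 19545 entries of the table carry 19542 symbols, of which 18990 were found in GENCODE M21 (GRCm38), the source of gene coordinates. No pair of libraries was identical.

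Genes of at least 1 FPKM in at least 3 of the 9 libraries (12061) were tested on log2(FPKM + 1) with limma 3.58.1 in R 4.3.3, with trended and robust variance, 1 mean per group, 6 residual degrees of freedom and Benjamini-Hochberg adjustment at 0.05. The transfer mean is the average of both group means. The procedure was tested on simulated data. The leading genes are the 15 largest called rises and falls without overlap, with a mean of at least 5 FPKM in the higher group and the same direction under all scalings, leaving out predicted genes. Members of 39 gene lists and a few fixed genes are named besides, and for the transfer groups the 3 smallest p. The comparison and the lists were chosen with earlier results of these data known; the urothelial, smooth muscle and inner medullary lists, and the fits with 12 libraries, were added after the data were seen. Alternatives covered scaling, filter, pseudocount, variance model, library weights, the libraries fitted, a replicate block and leaving out each library. A few listed genes are not reported here.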

Additional observations from a re-analysis of the deposited data

Results flagged for a closer look

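Each of the 173 tested genes that the text names was checked for a library far from the other 5 among the 6 transfer libraries, with the gap on the log2(FPKM + 1) scale divided by the whole range and compared with Dixon's critical value. This picked out 8 of the 173 genes, which is no larger a share than the 1 in 20 or so that chance alone picks out. STZ+AOS-FMT 2 was lowest for Ly6d (2.80 FPKM, ratio 0.64), Sprr1a (6.80 FPKM, ratio 0.712), Vim (20.2 FPKM, ratio 0.627) and Pnpla2 (59.0 FPKM, ratio 0.651), and highest for Odc1 (759.0 FPKM, ratio 0.651). STZ+control-FMT 2 was highest for Fos (47.3 FPKM, ratio 0.692) and Egr1 (96.9 FPKM, ratio 0.686). STZ+AOS-FMT 3 was lowest for Calr (372 FPKM, ratio 0.731). Of the 6 transfer libraries, STZ+AOS-FMT 2 also had the lowest urothelial sum.

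Transcripts of other tissues were above the level of the 9 compared libraries in libraries that this comparison did not use. The adrenal cortex sum was at least 159 FPKM in every STZ+AOS library, against at most 19.0 in the 9. The spermatid sum was at least 35.8 FPKM in every control library and at least 27.9 in every STZ library, against at most 1.51 in the 9.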

How the results depend on the processing

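For both transfer groups against AOS, 2639 genes were called; quantile normalization gave 1640, rescaling to the total without Kap 1735, and leaving out 1 library 1178 to 3127. With all 18 libraries 2 were called. In fits of 12 libraries, chosen after seeing the data, 869 were called with STZ+AOS added, 13 with the controls and 4 with STZ. For STZ+AOS-FMT minus AOS, against 1582, these gave 948, 1042, 717 to 1842, 1, 395, 2 and 0, in the same order. For STZ+control-FMT minus AOS, against 1889, leaving out 1 library gave 807 to 2038, all 18 libraries 0, and the fits of 12 libraries 369, 0 and 0. Those 0 calls stand beside 1403, 2282 and 2474 genes at an unadjusted p under 0.05, and the 0 for STZ+AOS-FMT beside 2210. Between the transfer groups, leaving out 1 library gave 0 to 1. Of the 254 called genes checked singly, 121 kept their call without each library in turn, and none but Kap (0.00 after quantile normalization, by construction) and Cyc1 (-0.01 after median-of-ratios rescaling) turned direction under the settings run. The numbers are not known to pair the samples and were not taken to do so. Deviations of same-numbered libraries had r from -0.0464 to 0.261, and those of other pairs r from -0.254 to 0.112. Between the transfer groups the same-numbered pairs had r of 0.035, 0.261 and 0.174. With the replicate block 2565 genes were called. Depth is unknown, so the precision of low values cannot be given; the cause of the lost calls was not tested.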

Other observations

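The libraries outside the comparison placed its leading genes as follows, as values without a test. Scd1 was at 27.8 to 82.1 FPKM in the 3 controls, 6.32 to 22.4 in STZ and 7.87 to 13.9 in STZ+AOS, so all 3 controls were above all 6 transfer libraries. Cdkn1a was at 7.11 to 82.6 FPKM in the controls with a median of 14.9, 6.52 to 80.1 in STZ with a median of 62.5, and 76.0 to 155 in STZ+AOS. Kap was at 15798 to 150876 FPKM in the controls with a median of 145522, 14615 to 144830.4 in STZ with a median of 63552, and 6174 to 41198 in STZ+AOS. Ephx1 was at 14.5 to 202 FPKM in the controls with a median of 15.8, 13.6 to 176 in STZ with a median of 112, and 129.8 to 194 in STZ+AOS. Ace was at 30.9 to 92.9 FPKM in the controls with a median of 92.0, 21.0 to 94.9 in STZ with a median of 31.3, and 9.14 to 28.9 in STZ+AOS.

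The beta globin gene Hbb-bs was at 1.04, 2.93 and 213 FPKM in AOS, 783, 115 and 1298 in STZ+AOS-FMT and 3258, 127 and 871 in STZ+control-FMT. The beta globin gene Hbb-bt was at 0.27, 0.24 and 23.5 FPKM in AOS, 105, 14.8 and 164 in STZ+AOS-FMT and 395, 19.6 and 115 in STZ+control-FMT. Neither was called.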
